A study of Mus musculus with 8 samples.

Results

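The genes described here encode RNA polymerase III (pol III) and the factors that work with it, measured in DC-restricted progenitors (CDPs) of mice on different diets. They were chosen by symbol, as the protein-coding genes of GENCODE vM21 whose symbol starts with Polr3, Gtf3c or Snapc, together with Gtf3a, Brf1, Brf2, Bdp1, Maf1, Ssb, Tbp, Crcp, Larp7 and Mepce. This gave 31 genes, all 31 of which were in the deposited table of 16119 genes. The rule reads symbols and no measured value. CDPs were flow-sorted from bone marrow as lineage-negative cells with CD115 and Flt3, intermediate c-Kit and low Sca-1, about 50000 per library. Total RNA was sequenced after a library preparation that depletes rRNA. The HFD group comprised 4 libraries from C57BL/6 mice with diet-induced obesity (labelled DIO), on chow with 60 kcal% fat and labelled as fed it for 16 weeks. The CF group comprised 4 libraries from C57BL/6 mice labelled DIO-Control, on chow with 10 kcal% fat, which the labels call matched for age and diet. The methods name males of the C57BL/6J background and give 16 weeks as an age, whereas the labels and the description of the diet model give 16 weeks as time on the diet. Neither diet group carried a transgene or another treatment in the labels, and the sources used here do not say whether a library came from 1 mouse or from a pool. The p-values therefore measure only the spread between these libraries.

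Pol III makes short RNAs that are not translated, among them 5S rRNA, tRNAs, the 7SK and 7SL RNAs, the Y RNAs, U6 snRNA and the RNA parts of RNase P and RNase MRP. At 5S and tRNA genes the promoter lies inside the gene, where TFIIIC binds (with TFIIIA at 5S genes) and places TFIIIB, which in turn recruits the polymerase. At genes such as U6 and 7SK the promoter lies upstream and is read by SNAPc together with a TFIIIB that contains Brf2. Maf1 represses pol III when growth signals fall, and the activity of the machinery is known to follow growth and proliferation.

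Total counts per library ranged from 28203651 to 38969160 in HFD and from 32575696 to 48409689 in CF. Protein-coding genes held 11819701 to 15164732 of these counts in HFD and 11927648 to 13709549 in CF. The smallest share was in CF replicate 1, where they held 13709549 of 48409689 counts. The gate markers Flt3, Csf1r (CD115) and Kit were present in all 8 libraries, with a summed level of 228 CPM (counts scaled to a common library size by TMM) in HFD replicate 1 and 381 to 511 CPM in the other 7. HFD replicate 1 also stood apart in 6 neutrophil genes (S100a8, S100a9, Ngp, Camp, Ltf and Lcn2), which summed to 17834 CPM there, 839 to 3231 CPM in the other HFD libraries and 1701 to 5837 CPM in CF. In 5 erythroid genes it reached 271 CPM against 39.5 to 67.4 CPM elsewhere, and in 4 granulocyte progenitor genes 1120 CPM against 212 to 699 CPM. In 4 conventional DC genes it was the lowest, with 58.9 CPM against 104 to 157 CPM. A list of 4 T and NK cell genes summed to 10.1 to 28.2 CPM, most of it Nkg7 (7.55 to 24.6 CPM), while Cd3e lay between 0 and 1.67 CPM. The sum of 4 B cell genes was 21.7 to 42.3 CPM in HFD and 13.2 to 21.4 CPM in CF, without overlap. That of 3 plasmacytoid DC genes was 86.0 to 157 CPM in HFD replicates 2 to 4 and 40.8 to 59.3 CPM in CF, with HFD replicate 1 inside the CF range. Of the genes in these lists that were tested (Cd3e and Cd3g were not), 0 were called different between the diets by edgeR. Of all protein-coding genes tested 0.034% were called, so 0 calls do not show that the diets were alike in these lists. The part of other cells in the values that follow was not tested. For genes described library by library, the log2 fold change is also given for the libraries whose removal moved it furthest, where that was by over 1.5 times or past 0, and without HFD replicate 1 where that did the same. In RNA from a whole sorted population, fewer cells of a type and less RNA per cell cannot be told apart.

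The machinery was expressed in CDPs of both diets, and for none of its genes was a difference between HFD and CF called. All 31 genes passed the filter on low counts, with 76 to 3049 counts in a library. Of these, 0 passed an adjusted p of 0.05 (edgeR quasi-likelihood test, Benjamini-Hochberg over 15837 genes), where 0.423% of all genes tested and 0.034% of protein-coding genes tested did. At an unadjusted p below 0.05 there were likewise 0 of the 31, against 8.56% of all genes and 5.38% of protein-coding genes. In 0 of the 31 did the 4 HFD libraries and the 4 CF libraries fail to overlap, against 6.16% of all genes and 3.76% of protein-coding genes.

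In direction, 19 of the 31 were higher in HFD and 12 were lower. Their median log2 fold change was 0.072, beside 0.055 over all genes tested and 0.070 over protein-coding genes tested, and 16 of the 31 lay above the latter. The values ran from -0.14 for Snapc4 to 0.29 for Snapc2, a range that held 69.7% of protein-coding genes. The median standard error was 0.15 for the machinery and 0.19 for protein-coding genes. The 95% intervals of all 31 genes lay within a 2-fold change in either direction, and those of 28 within a 1.5-fold change. The widest bounds were 0.686-fold for Snapc4 and 1.74-fold for Snapc5. When libraries were scaled by their total counts alone, the median of all genes tested moved from 0.055 to 0.25, and that of the machinery moved with it from 0.072 to 0.26. Under that scaling 31 of 31 genes were higher in HFD, so the signs of single values given here are relative to the TMM scaling.

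**Figure D1:**
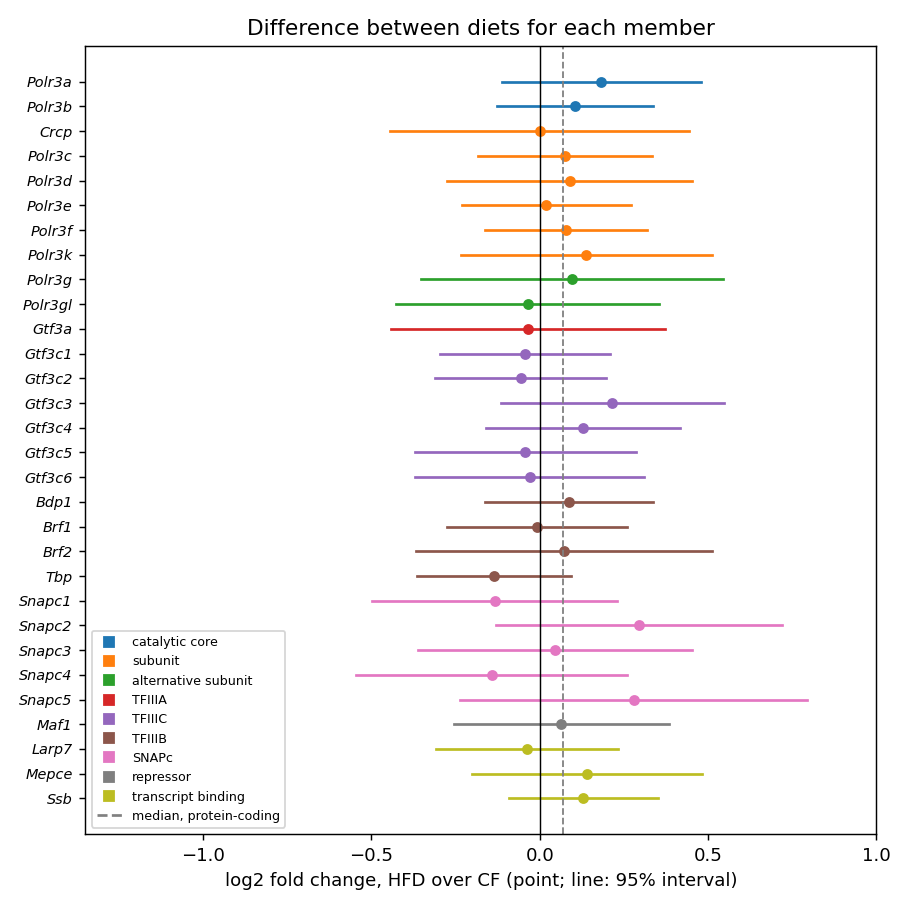
Log2 fold change of HFD over CF for 30 of the 31 genes (x axis; point: estimate, line: 95% interval, edgeR), coloured by role, with no change as a solid line and the median of protein-coding genes (0.070) as a dashed line. Every interval crosses 0, and the estimates lie between -0.14 and 0.29.

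The subunits of pol III itself were all present. Polr3a, the largest subunit, carries the catalytic site together with Polr3b, the second-largest one. Polr3c, Polr3f and the alternative subunits Polr3g and Polr3gl form a subcomplex that meets TFIIIB, Polr3d and Polr3e form a pair that acts in initiation and termination, Crcp is part of the stalk, and Polr3k acts in termination. Over the 11 of them, 9 were higher and 2 lower in HFD (median log2 fold change 0.084), and 0 were called.

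Per length of exon, the subunits differed from each other more than the diets did. In CF their mean level ran from 0.778 CPM per kb (Polr3g) to 6.22 CPM per kb (Polr3c), and in HFD from 0.832 CPM per kb to 6.55 CPM per kb for the same genes. Polr3b stood at 5.75 ± 0.49 CPM per kb in CF (SD, n = 4) and Polr3a at 2.31 ± 0.32 CPM per kb, although both are present once in each enzyme. Polr3k stood at 4.81 ± 0.43 CPM per kb, Crcp at 3.84 ± 0.32 CPM per kb, Polr3e at 2.32 ± 0.09 CPM per kb and Polr3f at 1.72 ± 0.16 CPM per kb. Polr3d stood lower, at 1.06 ± 0.09 CPM per kb. These levels depend on the annotated length, since exons that CDPs do not use lower the value of a gene.

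**Figure D2:**
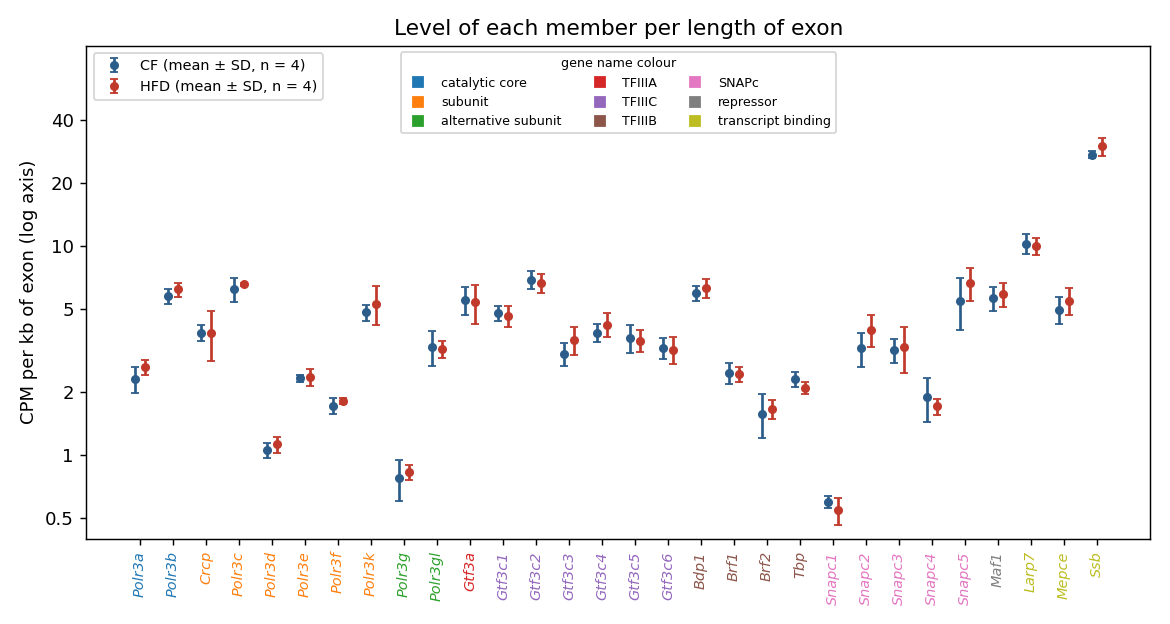
Level of 30 of the 31 genes in CPM per kb of exon (log axis), as mean ± SD over 4 CF libraries (blue) and 4 HFD libraries (red), with gene names coloured by role. Ssb is the highest (27.2 CPM per kb in CF) and Snapc1 the lowest (0.600 CPM per kb), and the bars of the diets overlap.

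Polr3a (chromosome 14, 24448696 to 24487058 on GRCm38, minus strand) had 14.1, 16.8, 15.7 and 14.6 CPM in HFD replicates 1 to 4 and 11.2, 13.2, 13.6 and 15.9 CPM in CF replicates 1 to 4. All 4 HFD libraries lay above the CF mean of 13.5 CPM, but CF replicate 4 lay above 3 of them. HFD over CF gave a log2 fold change of 0.18 with a standard error of 0.13 (edgeR, adjusted p = 0.81), and 0.11 without CF replicate 1. Polr3b (chromosome 10, 84622292 to 84727178, plus strand) had 30.6, 34.8, 34.6 and 30.1 CPM in HFD and 28.4, 34.0, 29.5 and 29.1 CPM in CF. HFD replicates 2 and 3 and CF replicate 2 formed an upper set, and the other 5 libraries of both diets lay together below it. Its log2 fold change was 0.10 with a standard error of 0.10 (adjusted p = 0.87), and its 95% interval of 0.915-fold to 1.26-fold was among the narrower ones. Without CF replicate 2 the log2 fold change of Polr3b was 0.17.

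Polr3c showed the smallest spread of all 31 genes within HFD, with a coefficient of variation of 1.35% (21.9 to 22.6 CPM) against 13.2% in CF (17.8 to 24.6 CPM). Crcp was the opposite case, with 26.8% in HFD and 8.42% in CF. HFD replicate 2 alone carried Crcp at 8.49 CPM while the other 3 HFD libraries had 4.88 to 5.69 CPM, and the fold between the diets was 1.00 (95% interval 0.735 to 1.36).

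The promoters of these genes are themselves read by RNA polymerase II. RefSeq promoters on GRCm38.p6, from 250 bases before to 50 bases after the start, were matched for 23 of the 31 genes (24 promoters). The E-box CACGTG, a palindrome and the preferred site of Myc with its partner Max, was in 5 of these 24 promoters (20.8%), which belong to 4 genes, Gtf3c6, Polr3c, Polr3e and Polr3gl, and in 7.15% of all 32851 promoters of the same length. The GC box GGGCGG, on either strand, was in 15 of 24 (62.5%) and in 35.7% of all promoters. The CCAAT box, on either strand, was in 8 of 24 (33.3%) and in 37.4%. The Polr3e promoter also held the letters GGTTCGA, which open the B box, the internal element of tRNA genes that TFIIIC binds. These letters, searched on both strands after the sequence had been seen, were in 1 of the 24 promoters and in 0.91% of all promoters (299 of 32851). The match ran from 201 to 195 bases before the start of Polr3e, and 5 T in a row, as end pol III transcripts, followed it after 23 bases. The 2 promoters below are shown because 1 holds the E-box and the letters of the B box and the other belongs to the more abundant of the alternative subunits. They are printed 5′ to 3′ on the strand of the gene with the E-box and the letters of the B box in capitals.
Polr3e (chr7:120917528-120917827, plus strand): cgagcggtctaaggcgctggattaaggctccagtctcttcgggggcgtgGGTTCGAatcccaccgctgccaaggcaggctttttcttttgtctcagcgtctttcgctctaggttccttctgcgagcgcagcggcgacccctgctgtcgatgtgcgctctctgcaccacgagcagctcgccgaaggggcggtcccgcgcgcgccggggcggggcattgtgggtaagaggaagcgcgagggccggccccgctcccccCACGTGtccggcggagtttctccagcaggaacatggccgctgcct
Polr3gl (chr3:96594132-96594431, minus strand): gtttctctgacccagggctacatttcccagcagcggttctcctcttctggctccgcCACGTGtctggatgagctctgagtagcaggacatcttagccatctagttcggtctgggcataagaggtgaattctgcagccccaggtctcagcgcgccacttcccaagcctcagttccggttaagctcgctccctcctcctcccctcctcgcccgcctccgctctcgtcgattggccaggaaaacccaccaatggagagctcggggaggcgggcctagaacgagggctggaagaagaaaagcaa
In Polr3e the E-box begins at base 6 of the transcript, and in Polr3gl it begins 194 bases before it. A match of letters is a description of the sequence and not a bound site. Whether the stretch with the letters of the B box and the T run in Polr3e is a tRNA gene was not tested. Between the diets the fold was 1.01 for Polr3e (95% interval 0.852 to 1.21) and 0.975 for Polr3gl (95% interval 0.744 to 1.28).

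Polr3g and Polr3gl take the same place in the enzyme, so that pol III exists in alternative forms, and Polr3g is known from undifferentiated and transformed cells. In CDPs Polr3gl was the more abundant, in all 8 libraries. The ratio of Polr3g to Polr3gl per length was 0.324, 0.217, 0.268 and 0.242 in HFD and 0.228, 0.210, 0.270 and 0.240 in CF. HFD replicate 1 had the highest ratio, and the other 7 libraries lay between 0.210 and 0.270. The means were 0.263 ± 0.046 in HFD and 0.237 ± 0.025 in CF (SD, n = 4; p = 0.37 by a two-sided exact permutation test, 0.71 after adjustment over 2 ratios). With the length of the longest transcript in place of all exons, the means were 0.302 and 0.273. Without HFD replicate 1, the log2 ratio in HFD minus that in CF was 0.034 (two-sided exact permutation test, p = 0.74) in place of 0.14. It was 0.23 without HFD replicate 2 (p = 0.17 by the same exact test), and these settings were chosen after seeing the data.

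Polr3g itself was low, with 3.56, 2.99, 3.44 and 3.11 CPM in HFD and 2.74, 2.42, 3.12 and 3.98 CPM in CF. CF replicate 4 held its highest value and CF replicate 2 its lowest, so the HFD libraries lay inside the CF range. In the edgeR fit the log2 fold change was 0.095 with a standard error of 0.20 (adjusted p = 0.96), and 0.053 without HFD replicate 1. It turned to -0.0021 without CF replicate 2 and was 0.25 without CF replicate 4. For Polr3gl the values were 4.46, 5.60, 5.19 and 5.22 CPM in HFD and 4.88, 4.68, 4.69 and 6.73 CPM in CF. CF replicate 4 again was the highest, well above its group. The log2 fold change was -0.036 with a standard error of 0.17 (adjusted p = 0.98), and it was 0.11 without CF replicate 4, 0.024 without HFD replicate 1 and -0.087 without CF replicate 2.

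TFIIIA, encoded by Gtf3a, is the zinc finger protein that binds inside 5S genes. It had 10.4, 12.1, 16.9 and 15.3 CPM in HFD and 14.5, 16.8, 12.2 and 12.6 CPM in CF, so the diets covered the same range. HFD over CF gave a log2 fold change of -0.034 with a standard error of 0.18 (edgeR, adjusted p = 0.98). HFD replicate 1 was its lowest library, and without it the log2 fold change was 0.076, while without HFD replicate 3 it was -0.15. Of the exon bases of Gtf3a, 59.1% are shared with Mtif3 on the opposite strand, and reads of the overlap cannot be told apart without strand. Whether counting used the strand is not given in the sources used here.

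TFIIIC has 6 subunits, of which Gtf3c1 is the largest and contacts the B box. Of the 6, 2 were higher and 4 lower in HFD (median log2 fold change -0.036), and 0 were called. Their levels per length were closer to each other than those of the pol III subunits, from 3.06 CPM per kb (Gtf3c3) to 6.90 CPM per kb (Gtf3c2) in CF. For Gtf3c2, 38.9% of the exon bases are shared with Gm29609 on the same strand, so its counts are uncertain. Gtf3c1 had 47.5, 57.9, 62.5 and 54.5 CPM in HFD and 60.0, 51.9, 55.5 and 61.8 CPM in CF. HFD replicate 1 was the lowest and HFD replicate 3 the highest of all 8. In the edgeR fit the log2 fold change was -0.043 with a standard error of 0.11 (adjusted p = 0.97), 0.026 without HFD replicate 1 and -0.10 without HFD replicate 3.

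Gtf3c3, the TFIIIC subunit that contacts TFIIIB, had 13.6 CPM in HFD replicate 1 but 18.6, 18.9 and 18.8 CPM in HFD replicates 2 to 4, and 14.5, 13.8, 14.0 and 17.9 CPM in CF. Thus 3 HFD libraries lay together above every CF library, while HFD replicate 1 lay below every CF library. The log2 fold change was 0.22 with a standard error of 0.15 (edgeR, adjusted p = 0.80). Without HFD replicate 1 it was 0.32 with a standard error of 0.12 (unadjusted p = 0.028, adjusted p = 0.27), the lowest adjusted p of any of the 31 genes in any setting. Without CF replicate 4 it was 0.31 (adjusted p = 0.80), and without HFD replicate 4 it was 0.14. The neutrophil genes that set HFD replicate 1 apart are given above, and their part in this value was not tested.

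TFIIIB holds Tbp, Bdp1 and either Brf1, used at genes with internal promoters, or Brf2, used with SNAPc at upstream promoters. Of the 4 genes 2 were higher and 2 lower in HFD, and 0 were called. Bdp1 was the most abundant of them (5.94 ± 0.51 CPM per kb in CF) with a fold of 1.06 (95% interval 0.894 to 1.26). Tbp, which serves all nuclear RNA polymerases, had 26.2, 29.8, 30.2 and 27.7 CPM in HFD and 35.0, 31.3, 29.8 and 29.0 CPM in CF. No HFD library reached the CF mean of 31.3 CPM, but 2 HFD libraries lay above the lowest CF library. HFD over CF gave a log2 fold change of -0.14 with a standard error of 0.10 (edgeR, adjusted p = 0.82), -0.098 without HFD replicate 1 and -0.078 without CF replicate 1. Pdcd2 on the opposite strand shares 19.0% of the exon bases of Tbp.

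Brf1 had 19.2, 19.0, 21.0 and 17.1 CPM in HFD and 18.9, 17.0, 18.5 and 22.3 CPM in CF, with a fold of 0.994 (95% interval 0.826 to 1.20; edgeR, adjusted p = 0.995). The HFD values lay wholly within the CF range. For Brf1 the log2 fold change was -0.0090, and it ranged from -0.061 without CF replicate 2 to 0.071 without CF replicate 4. For Brf2 the values were 4.65, 5.41, 5.98 and 5.31 CPM in HFD and 6.74, 5.09, 4.57 and 3.92 CPM in CF. The fold was 1.05 (95% interval 0.775 to 1.43; edgeR, adjusted p = 0.97). The log2 fold change of Brf2 was 0.072, and 0.13 without HFD replicate 1. It turned to -0.034 without CF replicate 4 and was 0.24 without CF replicate 1. Brf2 varied more among CF libraries (coefficient of variation 23.7%) than among HFD libraries (10.2%). Per length Brf2 was below Brf1 in every library, with a ratio of 0.588, 0.690, 0.692 and 0.753 in HFD and 0.866, 0.724, 0.598 and 0.427 in CF. The mean ratios of 0.681 ± 0.069 and 0.654 ± 0.186 differed by less than the spread (SD, n = 4; p = 0.71 by the same exact test, 0.71 adjusted). As a log2 ratio the difference was 0.10, and 0.17 without HFD replicate 1. It turned to -0.088 without CF replicate 4 and was 0.25 without CF replicate 1.

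SNAPc binds the proximal sequence element of snRNA-type genes, those of pol II as well as of pol III. Of its 5 subunits 3 were higher and 2 lower in HFD (median log2 fold change 0.045), and 0 were called. They included both extremes of the machinery, Snapc2 and Snapc4, and the lowest level per length, that of Snapc1. Snapc1, a core subunit of the complex, had 4.59, 3.52, 4.17 and 5.02 CPM in HFD and 4.70, 4.42, 4.72 and 5.15 CPM in CF. Except for HFD replicate 2, the libraries of both diets lay close to each other. In the edgeR fit the log2 fold change was -0.13 with a standard error of 0.16 (adjusted p = 0.91), -0.047 without HFD replicate 2 and -0.25 without HFD replicate 4.

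Snapc2, the lowest p of the 31, had 5.71, 6.32, 7.71 and 8.32 CPM in HFD and 5.89, 7.16, 4.94 and 4.91 CPM in CF. The 2 highest libraries were HFD and the 2 lowest CF, and the other 4 were mixed. The log2 fold change was 0.29 with a standard error of 0.19 (edgeR, adjusted p = 0.78; 95% interval 0.914-fold to 1.65-fold), 0.38 without HFD replicate 1 (adjusted p = 0.39) and 0.16 without HFD replicate 4 (adjusted p = 0.999). Snapc5 had 9.24, 6.51, 7.40 and 9.49 CPM in HFD and 4.44, 8.84, 7.34 and 6.29 CPM in CF. The highest values were HFD replicates 1 and 4, the lowest was CF replicate 1, and the diets overlapped between them. Its log2 fold change was 0.28 with a standard error of 0.23 (adjusted p = 0.84), and it was 0.12 without CF replicate 1, 0.16 without HFD replicate 4 and 0.44 without CF replicate 2.

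**Figure D3:**
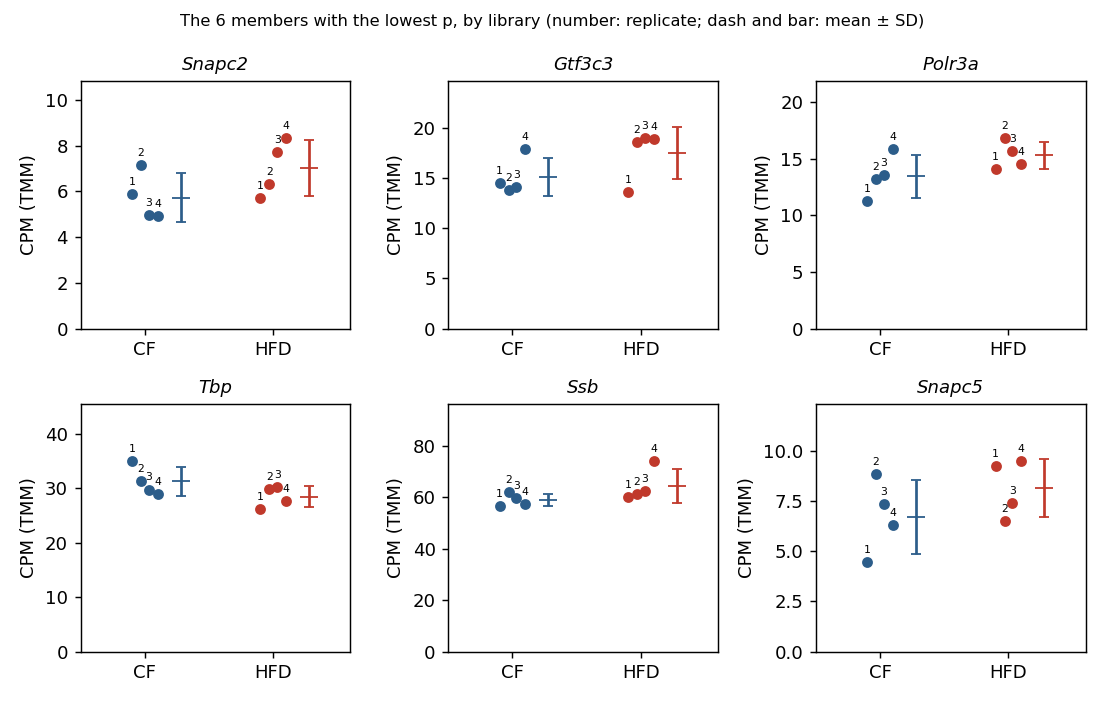
TMM-scaled CPM of the 6 genes with the lowest p, by library, for CF (blue) and HFD (red), with replicate numbers beside the points and mean ± SD (n = 4) at their right. In each gene the diets overlap, and in Gtf3c3 HFD replicate 1 (13.6 CPM) lies apart from the other 3 HFD libraries (18.6 to 18.9 CPM).

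Maf1, the repressor of pol III, had 16.4, 12.0, 13.7 and 14.6 CPM in HFD and 14.5, 15.4, 11.4 and 13.0 CPM in CF. Neither diet was consistently above the other. HFD over CF gave a log2 fold change of 0.065 with a standard error of 0.14 (edgeR, adjusted p = 0.96; 95% interval 0.838-fold to 1.31-fold). The log2 fold change turned to -0.013 without HFD replicate 1 and to -0.0097 without CF replicate 3, and it was 0.14 without HFD replicate 2. Maf1 is controlled by phosphorylation, which RNA levels do not show.

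Per length, the transcript-binding proteins Ssb and Larp7 were the most abundant of the machinery. Ssb (La), which binds the run of U at the 3′ end of new pol III transcripts, reached 27.2 ± 1.1 CPM per kb in CF and 29.8 ± 3.0 CPM per kb in HFD (SD, n = 4). Its values were 60.0, 61.1, 62.5 and 74.0 CPM in HFD and 56.6, 61.9, 59.6 and 57.4 CPM in CF. HFD replicate 4 was the highest library, and the other 3 HFD libraries lay at the upper end of the CF values, with CF replicate 2 among them. In the edgeR fit the log2 fold change was 0.13 with a standard error of 0.097 (adjusted p = 0.82), and 0.017 without HFD replicate 4. By the exact two-sided permutation test its p of 0.11 was the lowest of the 31, where 0.029 is the smallest that 70 splits can give.

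Larp7 and Mepce hold and cap the 7SK RNA, the pol III transcript that restrains the elongation factor P-TEFb. Larp7 had 21.2, 25.3, 22.4 and 25.6 CPM in HFD and 24.9, 26.8, 20.4 and 24.9 CPM in CF, and the diets covered the same range (log2 fold change -0.037, standard error 0.12; edgeR, adjusted p = 0.97). Its log2 fold change was 0.011 without HFD replicate 1 and 0.014 without CF replicate 2, and -0.12 without HFD replicate 4. Per length it was second to Ssb, at 10.2 ± 1.2 CPM per kb in CF. Mepce had 19.2, 15.5, 22.2 and 20.8 CPM in HFD and 17.2, 17.1, 21.2 and 15.0 CPM in CF, again with overlap. Its log2 fold change was 0.14 with a standard error of 0.15 (adjusted p = 0.89). It was 0.065, 0.070 and 0.071 without HFD replicate 4, HFD replicate 3 and CF replicate 4, and 0.24 without either HFD replicate 2 or CF replicate 3.

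Among the libraries, HFD replicate 1 was the lowest of all 8 in 11 of the 31 genes and the lowest of its diet in 17. The summed level of the 31 genes was 574 CPM there, 618 to 650 CPM in the other HFD libraries and 583 to 607 CPM in CF. CF replicate 2, the lowest CF library in this sum, was the lowest of its diet in 15 genes. As a share of protein-coding counts the machinery held 0.139% in HFD replicate 1, 0.168% to 0.182% in the other HFD libraries and 0.150% to 0.171% in CF. The neutrophil sum was highest in HFD replicate 1. In CF replicates 1 to 4 it was 1701, 5837, 5313 and 5235 CPM, beside 606, 583, 597 and 607 CPM for the machinery. The part of neutrophil RNA in these levels was not tested. Without HFD replicate 1, 25 of the 31 genes were higher in HFD (median log2 fold change 0.076), beside 0.029 over all genes tested, and 0 were called. Above that median of all genes lay 21 of the 31, where 17 lay above the median of all genes with all 8 libraries.

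**Figure D4:**
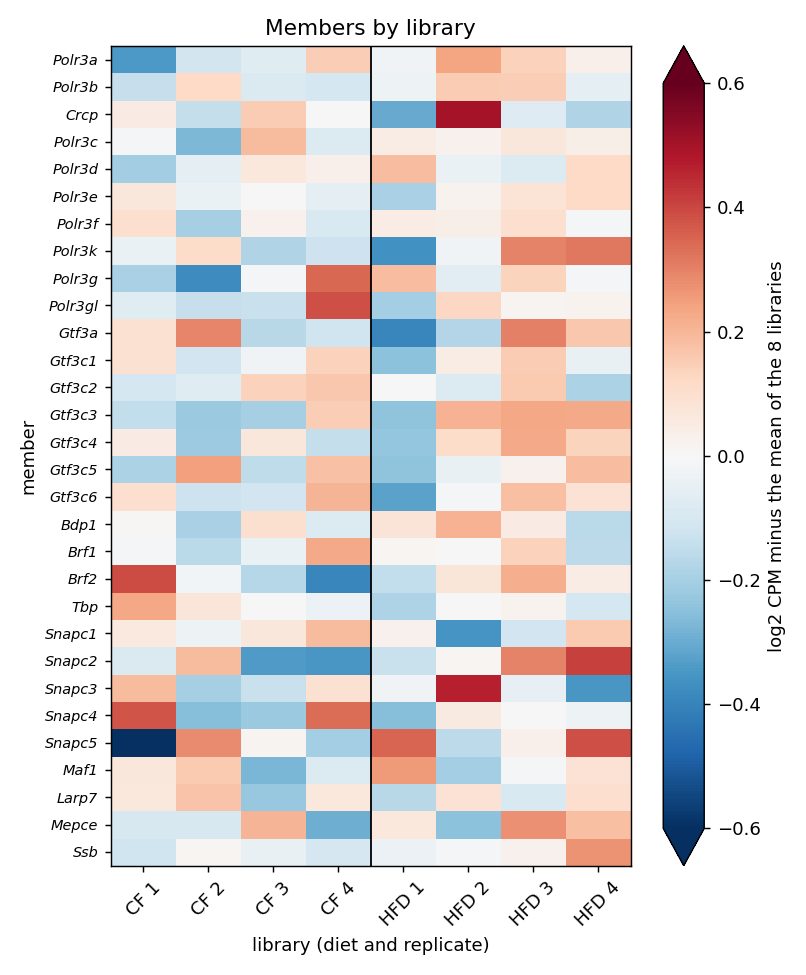
Log2 CPM of 30 of the 31 genes in each library minus the mean of the 8 libraries (colour, red above and blue below, scale ending at 0.6 in both directions). HFD replicate 1 is blue in much of its column, HFD replicate 3 is red in most of its own, and no row separates the diets.

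Other genes that work with the machinery, from lists of related proteins, were read from the same fit. Of 7 subunits that pol III shares with pol I or also with pol II, 3 were higher and 4 lower in HFD (median log2 fold change -0.071). The lowest p was that of Polr2h (3.37 ± 0.71 CPM in HFD, 4.03 ± 0.73 CPM in CF; SD, n = 4; edgeR, adjusted p = 0.84). Of 6 subunits of pol I, 4 were higher and 2 lower, with a median of 0.048. Here Twistnb, a stalk subunit, had 14.5 to 19.2 CPM in HFD and 12.1 to 14.2 CPM in CF, without overlap between the diets (log2 fold change 0.28, adjusted p = 0.61). Of 7 subunits of pol II, 5 were higher and 2 lower, with a median of 0.045, and the lowest p belonged to Polr2a (log2 fold change -0.13, adjusted p = 0.88). In each of these lists 0 genes were called and 0 were at an unadjusted p below 0.05.

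Of 13 regulators of pol III, which include Myc, p53, the retinoblastoma family, mTOR, CK2 and PP2A, 9 were higher and 4 lower, with a median of 0.080, and 0 were called. Myc, which binds TFIIIB and activates pol III, had the lowest p, with 34.9, 38.7, 51.0 and 52.6 CPM in HFD and 37.6, 27.4, 36.8 and 33.2 CPM in CF. HFD replicates 2 to 4 lay above every CF library, and HFD replicate 1 lay within the CF range. The log2 fold change of 0.39 (standard error 0.16) had an unadjusted p of 0.041 and an adjusted p of 0.54 (edgeR). Of the 3 promoter factors outside the rule (Pou2f1, Zfp143 and Chd8), 2 were higher and 1 lower, and Zfp143 had the lowest p (log2 fold change 0.30, adjusted p = 0.81). Of 27 protein partners of pol III transcripts that were in the table, such as the proteins of the signal recognition particle and of RNase P, 22 were higher and 5 lower, with a median of 0.16, and 0 were called or at an unadjusted p below 0.05. Their lowest p was that of Srp14 (15.2 ± 2.3 CPM in HFD and 11.8 ± 2.4 CPM in CF; log2 fold change 0.36, edgeR adjusted p = 0.66). Beside the medians of these lists, that over protein-coding genes tested was 0.070, and the counts of direction are relative to the TMM scaling.

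Among transcripts of pol III itself, the calls were genes of 1 RNA, 5S rRNA, and 1 other transcript, Vaultrc5, all lower in HFD. Of 47 genes named as 5S rRNA, 46 were lower and 1 was higher, with a median log2 fold change of -1.68, and 25 were called, all lower (log2 fold change -1.94 to -1.48, adjusted p = 0.035 to 0.045 by edgeR). The libraries were depleted of rRNA, and the part of that step in the 5S counts was not tested. Since 5S copies are nearly the same in sequence, how reads were shared out among them is not certain, and they do not count as independent. These calls rest on the full set of libraries: without any 1 of HFD replicates 2 to 4 or CF replicates 1 to 3, 0 to 2 genes of the whole table were called, against 200 without HFD replicate 1 and 154 without CF replicate 4, and with the replicate number as a block 0 were called. The 1 that was higher, n-R5s27, had 0.26 to 1.01 CPM in HFD and 0.23 to 0.47 CPM in CF (adjusted p = 0.82). The copy with the lowest p, n-R5s71, had 7.93 to 11.9 CPM in HFD. In CF replicates 1 to 4 it had 54.3, 33.0, 38.1 and 28.4 CPM. The copy with the highest level, n-R5s193, had a mean of 28063 CPM in HFD and 80148 CPM in CF. It was not called (log2 fold change -1.51, edgeR adjusted p = 0.075). In both copies the diets did not overlap, and CF replicate 1 was the highest library.

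Of the 9 other pol III transcripts in the table, all were lower in HFD (median -0.66), and 1 was called, the vault RNA Vaultrc5 (143 nt; log2 fold change -1.98, adjusted p = 0.043). The Y RNAs, which bind the Ro protein and end in the U run that Ssb binds, had lower values in HFD without passing the threshold. Rny1 (112 nt) had 283, 457, 381 and 499 CPM in HFD and 2150, 1178, 1130 and 818 CPM in CF (log2 fold change -1.70, edgeR adjusted p = 0.072). Rny3 (102 nt) had 281, 355, 352 and 437 CPM in HFD and 1733, 979, 921 and 700 CPM in CF (log2 fold change -1.60, adjusted p = 0.062). In both Y RNAs every HFD library lay below every CF library. For the longer transcripts the log2 fold changes were -0.76 for Rmrp (271 nt, adjusted p = 0.24), -0.66 to -0.42 for the 7SL genes Rn7s1, Rn7s2 and Rn7s6 (291 to 300 nt), -0.29 for Rpph1 (319 nt) and -0.14 for Rn7sk (331 nt, adjusted p = 0.97). The level of Rn7sk was low, with a mean of 0.946 CPM in HFD and 1.04 CPM in CF, where the others of these longer transcripts had means of 618 to 11028 CPM.

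The sequences of both Y RNAs are given as DNA from GENCODE vM21 on GRCm38, 5′ to 3′. They are shown for their terminal T run, in capitals, which is the pol III terminator and in RNA the binding site of Ssb.
Rny1 (chr6:47788069-47788180, minus strand): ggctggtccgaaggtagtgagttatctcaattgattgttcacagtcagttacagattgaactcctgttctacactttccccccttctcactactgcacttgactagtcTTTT
Rny3 (chr6:47781624-47781725, plus strand): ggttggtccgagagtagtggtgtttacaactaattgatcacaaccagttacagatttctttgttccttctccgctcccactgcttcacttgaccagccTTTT

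Lower values in HFD were also measured in short RNAs outside these lists. These were chosen by length and by not being in the lists, and they hold 210 snRNA genes, of which U6 is a pol III product, and rRNA genes without a 5S name, such as Gm24312. Of the 639 such non-coding genes of up to 200 nt that were tested, 590 were lower and 49 higher in HFD (median log2 fold change -1.26), and 28 were called, all lower. Of 289 snoRNA genes among them, which are made by pol II, 287 were lower, with a median of -1.37. Short length was thus shared by the pol III transcripts and the snoRNAs with lower values in HFD, and its part was not tested.

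**Figure D5:**
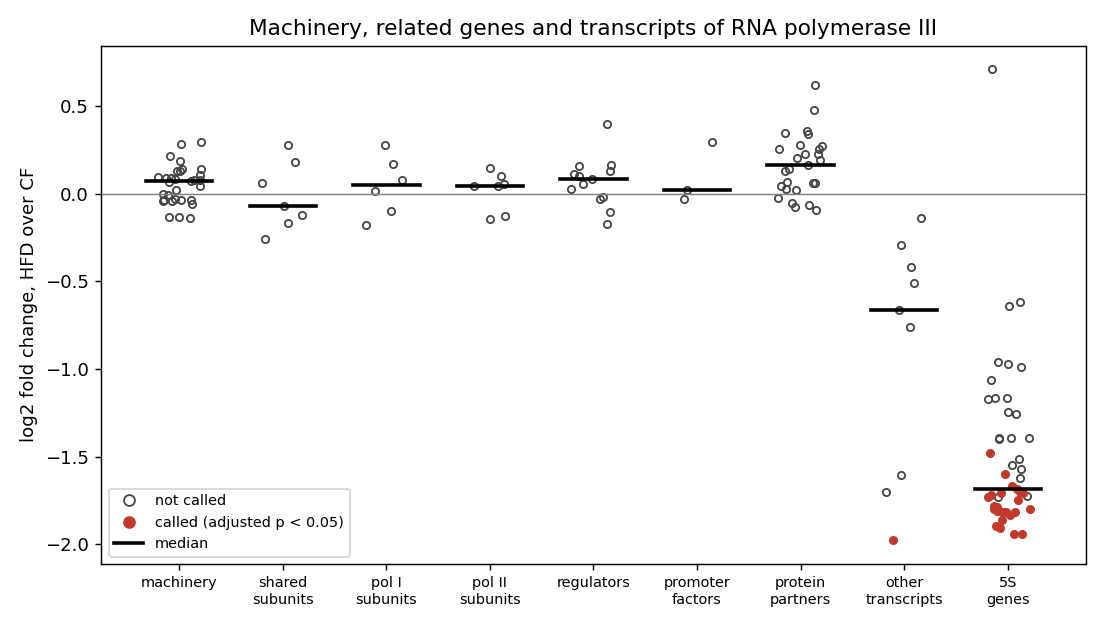
Log2 fold change of HFD over CF for the 31 machinery genes, the other gene lists and the transcripts of pol III (points; filled red: adjusted p below 0.05, edgeR; bars: median of the list). The machinery lies around its median of 0.072, and the 5S genes around -1.68.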

How the data were processed

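The authors deposited raw counts per gene for the 8 libraries. In the methods, total RNA was depleted of rRNA during NuGEN Ovation SoLo library preparation, sequenced as read pairs, aligned with HISAT2 and assigned by StringTie to GENCODE genes from uniquely mapped pairs. Near-identical genes such as 5S copies may lose reads under that rule. The submitters' processing notes also name FastQC, cutadapt and GRCm38. Versions and the GENCODE release are not given in the sources used here. Genes were matched by identifier to GENCODE vM21, and 52 of 16119 were not matched.

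The fit used edgeR 4.0.16 in R 4.3.3 (filterByExpr, TMM, robust quasi-likelihood fit, diet as the only term, Benjamini-Hochberg over all 15837 genes tested, threshold 0.05). CPM are TMM-scaled, levels per length are divided by kb of all annotated exons, and a prior count of 2 entered log2 CPM. The exact permutation test is two-sided, over 70 splits. The fit was tested on simulated data, where edgeR missed most changes of 1.5-fold and 2-fold and some DESeq2 calls were false. Tried as alternatives were DESeq2 1.42.0, voom of limma 3.58.1, scaling by RLE or by library size alone, no filter, 1 CPM in 4 libraries, protein-coding genes alone, the replicate number as a block, each library left out in turn, and the longest transcript as length. The members and lists were chosen with earlier results of these data known. Genes of the machinery were given by level, and library by library the 6 with the lowest p and 14 chosen by role, of which some coincide. Of each other list the lowest p was named, and any gene called, the 5S genes by their count and range. n-R5s27, n-R5s193, the Y RNAs and the longer transcripts were named after their values were seen, as were Polr3c, Crcp and Polr3e for their spread or promoter. Plots came from matplotlib 3.10.9 under Python 3.11.15. A gene of the machinery that is counted in the totals and a sequence are not reported here by name. Not analysed here were transcript-level values and the other assays of the study.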

Additional observations from a re-analysis of the deposited data

Results flagged for a closer look

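Among the 62 sets of 4 libraries looked at (31 genes in each diet), 2 held a library far from the other 3, while chance alone flags about 1 in 20. For Gtf3c3 in HFD, replicate 1 was the lowest with a log2 CPM of 3.77 against 4.22 to 4.25 in the others, a gap of 0.944 of the whole range. For Polr3gl in CF, replicate 4 was the highest with a log2 CPM of 2.76 against 2.24 to 2.31 in the others, a gap of 0.881 of the range. The report gives both genes with and without these libraries.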

How the results depend on the processing

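Of 272 log2 fold changes of 17 single genes of the machinery in other settings, 252 kept their direction, 20 turned and 0 were called, and the lowest adjusted p of any of the 31 genes in any setting was 0.27. Genes called over the whole table, 67 and all lower in HFD by edgeR with TMM, were 108 (10 higher) under library size alone, 567 (503 lower, 64 higher) with DESeq2, 0 with protein-coding genes alone (537 at an unadjusted p below 0.05) and 0, thus 0 lower, with the replicate number as a block (911 at an unadjusted p below 0.05). Leaving out each library in turn gave 0 to 200 genes called, 0 to 166 lower and 0 to 34 higher. The count was 200 without HFD replicate 1 and 154 without CF replicate 4, and 0 to 2 without any 1 of the other 6 (1091 to 1403 at an unadjusted p below 0.05). The same-numbered libraries did not deviate together (r = -0.44, -0.078, -0.23 and -0.18 for replicates 1 to 4). These values cannot show whether they were prepared together, which the sources used here do not give. The block left the median of the machinery at 0.083 with 0 of its genes called. Of the machinery, 1 gene was at an unadjusted p below 0.05 under library size alone (Snapc2), where 2182 of all 15837 genes were, and 0 to 1 when a library was left out (Gtf3c3 without HFD replicate 1, where 2309 of 15863 genes were). Under library size alone the median of the machinery was 0.26 (all genes tested 0.25), and the log2 fold change turned to 0.073 for Tbp, 0.13 for Polr3gl, 0.17 for Brf1, 0.18 for Gtf3a, 0.15 for Gtf3c1, 0.045 for Snapc1 and 0.16 for Larp7, as the scaling moved all genes upward. With a library left out, the log2 fold change ranged from -0.0021 to 0.25 for Polr3g, -0.087 to 0.11 for Polr3gl, -0.061 to 0.071 for Brf1, -0.034 to 0.24 for Brf2, -0.15 to 0.076 for Gtf3a, -0.10 to 0.026 for Gtf3c1, -0.013 to 0.14 for Maf1 and -0.12 to 0.014 for Larp7. Without a turn it ranged from 0.11 to 0.27 for Polr3a, 0.072 to 0.17 for Polr3b, 0.14 to 0.32 for Gtf3c3, -0.17 to -0.078 for Tbp, -0.25 to -0.047 for Snapc1, 0.16 to 0.42 for Snapc2, 0.12 to 0.44 for Snapc5, 0.017 to 0.16 for Ssb and 0.065 to 0.24 for Mepce. In alternatives chosen after seeing the data, the log2 ratio of Brf2 to Brf1 ranged from -0.088 (without CF replicate 4) to 0.25 and that of Polr3g to Polr3gl from 0.034 to 0.23. With the longest transcript as length, the median level of the machinery was 4.57 CPM per kb in HFD and 4.08 CPM per kb in CF. The cause of these shifts was otherwise not tested. Counts were low for Polr3g and Polr3d, with as few as 76 and 94 in a library.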
